A study of Mus musculus with 4 samples.

Results

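The genes that make, release, sense and clear acetylcholine, together with those of glycine receptors and transporters, were examined in the whole brain of adult male mice that had received ethanol or saline as newborns. The members were the rows of the array (probe sets, each summarizing the probes of one transcript) whose annotation names a single gene among the nicotinic subunits (Chrna, Chrnb, Chrnd, Chrne, Chrng), the muscarinic receptors (Chrm1 to Chrm5), the glycine receptor subunits (Glra1 to Glra4, Glrb), Chat, Ache, Bche, Slc18a3, Slc5a7, Slc6a5, Slc6a9, Lynx1 and Ly6h. This gave 35 genes with 1 row each, out of 35556 rows, of which 21789 name a single gene. All 35 symbols were matched by Entrez ID to the RefSeq gene table.

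C57BL/6J pups of the ethanol group were injected under the skin with 20% ethanol in 0.15 M saline on postnatal days 4 and 7, as 2 doses of 2.5 g/kg given 2 hours apart, and pups of the control group received saline alone on the same schedule. Per the labels they were weaned at day 25 and the brain was collected at day 60, whereas the methods give other days for both. Each of the 4 arrays held RNA pooled from 3 males of different litters, so the spread between arrays is a spread between pools and not between mice. By title the arrays are control 1, control 3, ethanol 2 and ethanol 4. The treatment entry of the labels names the opposite group for control 1 and ethanol 4, and the results under that reading are given after those by title.

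Acetylcholine is made from choline and acetyl-CoA by choline acetyltransferase (Chat), loaded into vesicles by Slc18a3 and split in the synaptic cleft by acetylcholinesterase (Ache), after which choline is taken back up by Slc5a7. It opens nicotinic receptors, which are ion channels built of several subunits, and activates muscarinic receptors, which signal through G proteins. Glycine opens chloride channels built from Glra and Glrb subunits, mainly in the spinal cord and brainstem, and is cleared by the neuronal transporter Slc6a5 and the mainly glial transporter Slc6a9. In the forebrain cholinergic fibres come from the basal forebrain and from interneurons of the striatum, among other sources.

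Values are log2 signals as deposited, and every difference is ethanol minus control on that scale. A row was called past the limits when it changed by at least 1.2-fold (0.263 on the log2 scale) with an unadjusted p under 0.05. The p-value came from limma's test. The limits are the study's own, but its test was a gene-level ANOVA. P-values printed here are adjusted over all 35556 rows. As deposited, the arrays were not on one level. The median of all rows was 6.61 for control 1, 6.51 for control 3, 6.33 for ethanol 2 and 6.38 for ethanol 4, the median difference over all rows was -0.15, and 80.2% of rows were lower in ethanol. Differences are therefore also given after a second quantile normalization of the 4 arrays, which brought the median difference over all rows to -0.0042. Among the tissue markers, ethanol 2 stood apart in those of the pituitary. Their mean log2 signal was 7.80 on control 1, 7.73 on control 3, 7.76 on ethanol 4 and 5.71 on ethanol 2, with growth hormone (Gh) at 6.53 on ethanol 2 and between 12.2 and 12.3 on the other arrays. Of these 8 markers Pomc alone was past the limits, lower in ethanol, beside 17.9% of all rows. It had 5.95 and 6.09 on control 1 and control 3 and 5.48 and 5.50 on ethanol 2 and ethanol 4. Pomc was thus lower on both ethanol arrays, but its value on every array was dim. Each lay under 6.22, the 95th percentile of the rows naming olfactory or vomeronasal receptors.

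Of the 35 genes, 4 were past the limits and lower in ethanol as deposited (Ache, Chrna4, Chat and Chrm1) and 0 were higher. That is 11.4% of the genes, against 17.9% of all rows lower and 2.23% higher past the same limits. By the ANOVA that the methods name, Chrm1 alone of the 35 was past the limits, against 8.11% of all rows lower. After quantile normalization 2 genes were lower, Ache and Chrna4, against 5.87% of all rows, and 1 was higher, the choline transporter Slc5a7, against 5.71% of all rows. Among the rows that name a single gene the shares were 16% lower and 0.546% higher as deposited, and 3.43% and 3.65% after quantile normalization. The counts of these genes thus lay near or under the background in each form of the values, and the calls describe single genes. The smallest adjusted p of any of the 35 was 0.18 as deposited and 0.33 after quantile normalization, while 1 row of the whole array (0.00281%) had an adjusted p under 0.05 and was not among them. Whole-brain RNA cannot tell fewer cells of a type from less RNA per cell.

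The median difference of the 35 genes was -0.12 as deposited, which is 0.03 above the median of all rows, and 0.05 after quantile normalization. As deposited, 27 of the 35 were lower in ethanol, and after quantile normalization 15 were lower and 20 higher. Both ethanol arrays lay below both control arrays for 16 genes and above them for 1 (Slc5a7), against 52.7% and 7.25% of all rows, and the groups overlapped for the other 18. After quantile normalization 9 genes lay below and 11 above, against 24.9% and 24% of all rows. The 9 were Ache, Chat, Chrna4, Chrnb1, Chrm1, Chrm2, Lynx1, Glrb and Slc6a5, and the 11 were Slc5a7, Slc18a3, Chrna1, Chrna3, Chrna7, Chrna9, Chrna10, Chrnd, Chrng, Chrm5 and Glra2. The difference between the groups was larger than the gap between the arrays of either group for 14 of the 35 genes (40%), against 46.2% of all rows. The median gap was 0.11 from control 1 to control 3 and 0.12 from ethanol 2 to ethanol 4, beside a median size of the difference of 0.12 and a median standard error (SE) of 0.10.

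**Figure D1:**
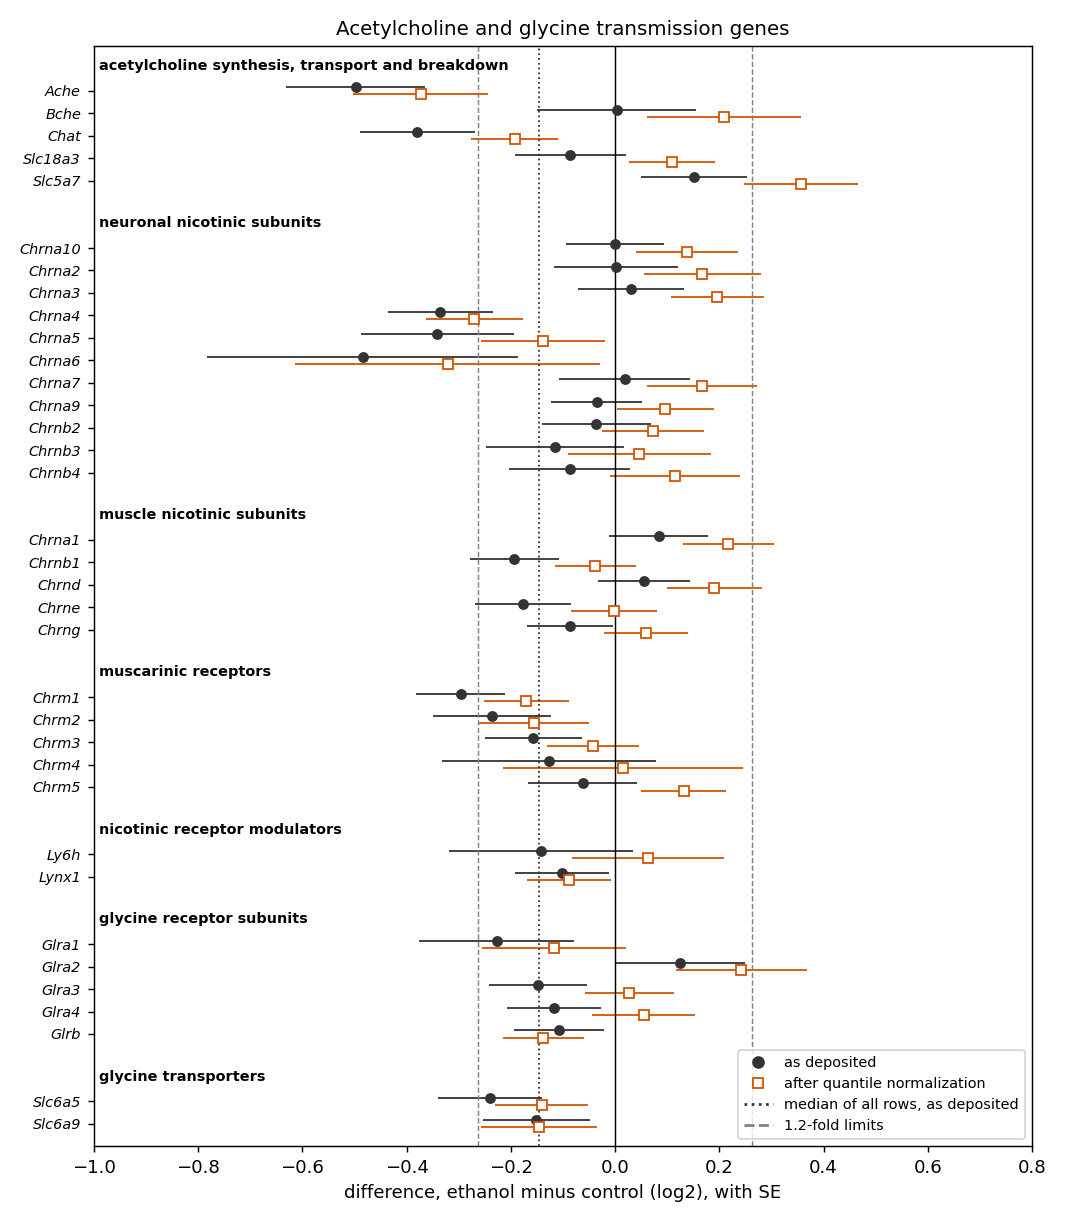
Difference between the 2 ethanol and the 2 control arrays for each of the 35 genes by role, in log2 units with the SE of limma's fit, as deposited (filled circles) and after a second quantile normalization (open squares). Dashed lines mark the 1.2-fold limits and the dotted line the median of all rows as deposited, -0.15. Quantile normalization moved most genes to the right, Ache and Chrna4 stayed left of the lower limit and Slc5a7 moved past the upper one.

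The 3 genes past the limits after quantile normalization are shown by the 250 bases before their annotated start, from the RefSeq promoter table (build GRCm38.p6), printed 5′ to 3′ on the strand of the gene. Capitals mark GGGCGG or its reverse complement CCGCCC, the core letters of the GC box that Sp1 family factors bind. The windows are chr5:137288004-137288253 (plus strand) for Ache, chr2:181039178-181039427 (minus strand) for Chrna4 and chr17:54299035-54299284 (minus strand) for Slc5a7.
Ache: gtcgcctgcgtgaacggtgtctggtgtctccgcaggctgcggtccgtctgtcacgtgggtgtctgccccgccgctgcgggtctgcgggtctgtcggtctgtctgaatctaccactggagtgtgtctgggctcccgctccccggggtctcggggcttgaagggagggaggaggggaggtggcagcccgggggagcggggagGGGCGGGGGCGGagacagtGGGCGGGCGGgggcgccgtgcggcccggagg
Chrna4: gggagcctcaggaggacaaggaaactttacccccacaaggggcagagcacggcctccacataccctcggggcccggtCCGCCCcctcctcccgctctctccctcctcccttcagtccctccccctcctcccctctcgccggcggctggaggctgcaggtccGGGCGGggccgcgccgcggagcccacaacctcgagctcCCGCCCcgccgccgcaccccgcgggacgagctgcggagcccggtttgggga
Slc5a7: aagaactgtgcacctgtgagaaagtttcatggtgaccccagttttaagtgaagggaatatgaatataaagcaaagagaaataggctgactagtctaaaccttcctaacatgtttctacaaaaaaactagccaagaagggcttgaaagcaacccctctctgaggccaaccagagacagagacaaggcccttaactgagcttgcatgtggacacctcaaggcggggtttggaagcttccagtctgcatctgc
The Ache window holds 4 such matches, which in part overlap each other, and 25 CG dinucleotides, and 10.7% of all 32851 windows in the table hold that many CG dinucleotides or more. The Chrna4 window holds 3 matches and 24 CG dinucleotides. The Slc5a7 window holds 0 matches and 1 CG dinucleotide, a number that 18.8% of all windows hold or fall under. The letters occur on either strand in 32.7% of all windows of this length and in 14 of the 31 windows (45.2%) that the table gives for 27 of the 35 genes, with several starts for some. The median was 8 CG dinucleotides in these 31 windows and 6 in all. Genes not past the limits in either form had windows of both kinds. Chrm4 had 26 CG dinucleotides and 3 matches, and Chrna7 had 25 and 1. Chrna10 and Chrne each had 1 CG dinucleotide and 0 matches. Whether these numbers go with the differences was not tested. A match is a run of letters and not a measured site, and no binding or methylation was measured here.

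Among the genes for making and clearing acetylcholine, Ache had the largest difference of all 35. Its log2 signal was 9.45 on control 1, 9.37 on control 3, 9.07 on ethanol 2 and 8.76 on ethanol 4. Both ethanol arrays lay below both control arrays, with ethanol 4 the lowest, and the difference was -0.50 (SE 0.13), or 0.709 of the control level, with an adjusted p of 0.18. After quantile normalization the difference was -0.37 (SE 0.13, adjusted p = 0.35). Leaving out ethanol 4 brought the deposited difference to -0.34 and leaving out control 1 to -0.45, both no longer past the limits. After quantile normalization Ache passed them with ethanol 2 left out and with no other array left out. Bche, the butyrylcholinesterase found mostly outside neurons, had 6.76 and 6.53 on control 1 and control 3 and 6.80 and 6.49 on ethanol 2 and ethanol 4, a difference of 0.0035 (SE 0.15) with the groups overlapping.

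Chat, the enzyme of acetylcholine synthesis, had a log2 signal of 6.10 on control 1, 5.91 on control 3, 5.56 on ethanol 2 and 5.69 on ethanol 4. No ethanol array reached a control array, and the difference was -0.38 (SE 0.11, adjusted p = 0.18), or 0.769 of the control level. It was past the limits with control 3 or ethanol 4 left out and not with control 1 or ethanol 2 left out. After quantile normalization it was -0.19 (SE 0.084) and no longer past the limits, though the groups were still apart. The signal was dim. Its mean of 5.82 lay under 6.22, the 95th percentile of 1210 rows naming olfactory or vomeronasal receptors, genes of the nose, whose median was 5.33.

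Slc18a3, the vesicular acetylcholine transporter, was as dim. Its values were 6.14 and 5.95 on control 1 and control 3 and 5.91 and 6.00 on ethanol 2 and ethanol 4, a difference of -0.086 (SE 0.11) with the groups overlapping. After quantile normalization both ethanol arrays lay above the controls, with a difference of 0.11 (SE 0.082) that was not past the limits. The gene lies inside the span of Chat in RefSeq, and how far the rows share transcripts was not tested. Slc5a7, the high-affinity choline transporter of cholinergic terminals, ran the other way. It had 6.42 and 6.54 on control 1 and control 3, and 6.56 and 6.70 on ethanol 2 and ethanol 4. The nearest arrays of the groups, control 3 and ethanol 2, were 0.024 apart. The difference was 0.15 (SE 0.10, adjusted p = 0.40) as deposited and 0.36 (SE 0.11, adjusted p = 0.33) after quantile normalization, when it passed the limits. With any one of control 1, ethanol 2 and ethanol 4 left out it did not pass them in that form, and without control 3 it did.

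**Figure D2:**
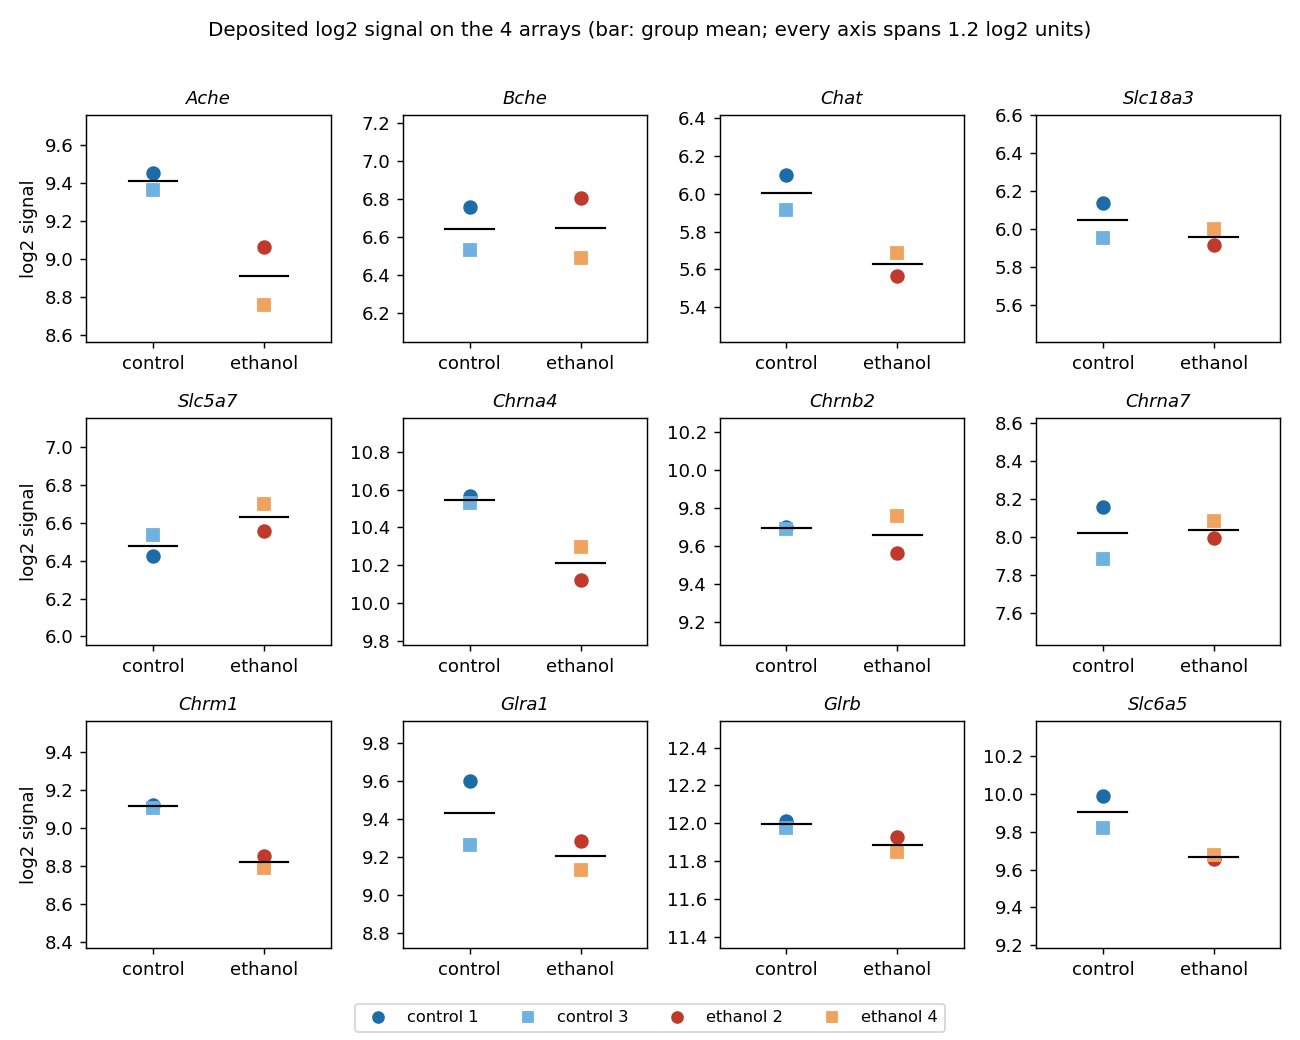
Deposited log2 signal of 12 genes on each of the 4 arrays, with control on the left and ethanol on the right of each panel, 1 symbol per array and a bar at the mean of each group, on axes that all span the same range. Ache, Chat, Chrna4 and Chrm1 have both ethanol arrays below both control arrays, Slc5a7 has them above, and Bche, Slc18a3, Chrnb2, Chrna7 and Glra1 overlap.

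Of the 11 neuronal nicotinic subunits, 1 was past the limits, lower in ethanol in both forms of the values, and 0 were higher, beside 17.9% of all rows lower as deposited and 5.87% after quantile normalization. It was Chrna4, the alpha4 subunit of the main high-affinity nicotine receptor of the brain. Its log2 signal was 10.57 on control 1, 10.53 on control 3, 10.12 on ethanol 2 and 10.30 on ethanol 4. The control arrays lay within 0.04 of each other and both ethanol arrays were lower, with a difference of -0.34 (SE 0.10, adjusted p = 0.19), or 0.792 of the control level, and of -0.27 (SE 0.094, adjusted p = 0.35) after quantile normalization. It stayed past the limits without ethanol 4 and did not without any one of the other 3 arrays, in both forms of the values.

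Chrnb2, the beta2 subunit that joins alpha4 in that receptor, had 9.70 and 9.69 on control 1 and control 3 and 9.56 and 9.76 on ethanol 2 and ethanol 4. The ethanol arrays lay on either side of the controls, and the difference was -0.036 (SE 0.10). Chrna7, which forms a channel on its own, had 8.16 and 7.88 on control 1 and control 3 and 7.995 and 8.08 on ethanol 2 and ethanol 4. As deposited the ethanol arrays lay between the control arrays, with a difference of 0.018 (SE 0.13), and after quantile normalization both lay above them, with a difference of 0.17 (SE 0.11) that was not past the limits.

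Chrna5, Chrna3 and Chrnb4 lie side by side on chromosome 9 and supply subunits of receptors in the habenula and in autonomic ganglia. Chrna5, an accessory subunit, had 6.48 and 6.11 on control 1 and control 3 and 5.97 and 5.94 on ethanol 2 and ethanol 4. Both ethanol arrays were lower, but the control arrays differed by 0.37, more than the difference of -0.34 (SE 0.15). Chrna3 had 7.74 and 7.65 on control 1 and control 3 and 7.65 and 7.80 on ethanol 2 and ethanol 4. The groups overlapped as deposited, with a difference of 0.031 (SE 0.10), and lay apart with ethanol higher after quantile normalization, with a difference of 0.20 (SE 0.089). Chrnb4 overlapped in both forms, with a difference of -0.087 (SE 0.12). The spans of Chrna5 and Chrna3 overlap in RefSeq.

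Chrna6 and Chrnb3, neighbours on chromosome 8, supply receptors of dopamine neurons. Chrna6 had the widest spread of the 35. Its values were 5.76 on control 1, 5.06 on control 3, 5.19 on ethanol 2 and 4.67 on ethanol 4, and its difference of -0.48 (SE 0.30) was smaller than the gap of 0.70 between the control arrays. Litters were shared between the groups, though the labels do not say which pools match, and with control 1 paired to ethanol 2 as a block Chrna6 was past the limits (adjusted p = 0.20). With control 1 paired to ethanol 4 it was not (adjusted p = 0.44). Chrnb3 had a difference of -0.12 (SE 0.13). Chrna2, Chrna9 and Chrna10, of which the latter pair is known from hair cells of the inner ear, had differences of 0.0014 (SE 0.12), -0.035 (SE 0.087) and -0.00072 (SE 0.094). All 5, like Chrna5, had mean signals under the 95th percentile of the olfactory and vomeronasal receptor rows.

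The 5 subunits of the muscle receptor (Chrna1, Chrnb1, Chrnd, Chrne and Chrng) all had mean signals under that percentile, between 4.93 and 5.58. Past the limits were 0 of them in either form, beside 17.9% of all rows lower and 2.23% higher as deposited. After quantile normalization these shares were 5.87% and 5.71%. Chrnb1 had 5.36 and 5.31 on control 1 and control 3 and 5.11 and 5.16 on ethanol 2 and ethanol 4, with a difference of -0.19 (SE 0.085). Chrne had 5.74 and 5.61 on control 1 and control 3 and 5.50 on each ethanol array, with a difference of -0.18 (SE 0.092). Both had the groups apart as deposited, and both differences were under 0.04 in size after quantile normalization, at -0.038 and -0.0022.

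Chrna1 and Chrnd had differences above 0 in both forms. Chrna1 had 4.86 and 4.91 on control 1 and control 3 and 4.90 and 5.04 on ethanol 2 and ethanol 4, a difference of 0.084 (SE 0.095) that became 0.22 (SE 0.087). Chrnd had 4.88 and 4.98 on control 1 and control 3 and 4.97 and 5.01 on ethanol 2 and ethanol 4, a difference of 0.056 (SE 0.088) that became 0.19 (SE 0.091). The groups overlapped as deposited and lay apart, with ethanol higher, after the normalization. Chrng had a difference of -0.086 (SE 0.082). The scaling alone thus moved all 5 of these dim rows upward relative to control.

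All 5 muscarinic receptors were lower in ethanol as deposited, as were 80.2% of all rows, and 1 of them, Chrm1, was past the limits, beside 17.9% of all rows. Chrm1, the main muscarinic receptor of cortex and hippocampus, had 9.12 on control 1, 9.11 on control 3, 8.85 on ethanol 2 and 8.79 on ethanol 4. The arrays of each group lay within 0.07 of each other, and the difference was -0.30 (SE 0.085, adjusted p = 0.18), or 0.814 of the control level. After quantile normalization it was -0.17 (SE 0.082), with the groups still apart and the limits no longer passed. As deposited, too, it did not pass them once any one array was left out.

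Chrm2, which couples to inhibitory G proteins and is found on cholinergic terminals, had 10.26 and 10.20 on control 1 and control 3 and 9.88 and 10.11 on ethanol 2 and ethanol 4, with a difference of -0.24 (SE 0.11). Chrm3 had 9.68 and 9.70 on control 1 and control 3 and 9.47 and 9.60 on ethanol 2 and ethanol 4, with a difference of -0.16 (SE 0.092). The groups were apart for both as deposited, and after quantile normalization for Chrm2 alone. Chrm4, a receptor of striatal neurons, had 7.97 on control 1 and 8.54 on control 3, beside 8.14 and 8.12 on ethanol 2 and ethanol 4. The ethanol arrays lay between the control arrays, and the difference was -0.13 (SE 0.21). Chrm5, which was dim, had a difference of -0.062 (SE 0.10). After quantile normalization 3 of the 5 receptors were lower and 2 higher.

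Lynx1 and Ly6h are small anchored proteins that bind nicotinic receptors and restrain them. Neither was past the limits in either form, beside 17.9% of all rows lower as deposited and 5.87% after quantile normalization. Lynx1 had 11.53 and 11.42 on control 1 and control 3 and 11.38 and 11.37 on ethanol 2 and ethanol 4, a difference of -0.10 (SE 0.090). Ly6h had 6.77 and 6.46 on control 1 and control 3 and 6.29 and 6.65 on ethanol 2 and ethanol 4, a difference of -0.14 (SE 0.18). Both ethanol arrays lay below the controls for Lynx1, and the groups overlapped for Ly6h.

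None of the 7 glycine genes was past the limits in either form. The shares of all rows were 17.9% lower and 2.23% higher as deposited, and 5.87% and 5.71% after quantile normalization. Glra1, the alpha subunit of adult glycine receptors, had 9.60 and 9.26 on control 1 and control 3 and 9.28 and 9.13 on ethanol 2 and ethanol 4. The groups overlapped and the difference of -0.23 (SE 0.15) was smaller than the gap between the control arrays, 0.34. Glrb, the beta subunit that anchors the receptor at the synapse, had 12.01 and 11.98 on control 1 and control 3 and 11.93 and 11.85 on ethanol 2 and ethanol 4, with a difference of -0.11 (SE 0.087) as deposited and -0.14 (SE 0.078) after quantile normalization. The groups were apart in both forms.

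Slc6a5, the transporter of glycinergic neurons, had 9.99 and 9.82 on control 1 and control 3 and 9.66 and 9.68 on ethanol 2 and ethanol 4. The groups were apart in both forms, and the difference was -0.24 (SE 0.099, adjusted p = 0.25) as deposited, and -0.14 (SE 0.089) after quantile normalization. Slc6a9 had 11.82 and 11.89 on control 1 and control 3 and 11.62 and 11.79 on ethanol 2 and ethanol 4, with a difference of -0.15 (SE 0.10). Glra2, the alpha subunit that prevails before and around birth, had a difference of 0.12 (SE 0.12) as deposited, where the other glycine genes were below 0. It had 8.85 and 8.98 on control 1 and control 3 and 8.92 and 9.17 on ethanol 2 and ethanol 4, so the groups overlapped, and after quantile normalization they lay apart with ethanol higher, with a difference of 0.24 (SE 0.13). Glra3 and Glra4 had differences of -0.15 (SE 0.094) and -0.12 (SE 0.091) as deposited and of 0.028 and 0.055 after quantile normalization, and Glra4 was dim.

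Slc6a5 and Glra1 are highest in brainstem and spinal cord, and the hindbrain marker list of 17 genes, which holds both genes, had a mean log2 signal of 6.06 on control 1, 5.94 on control 3, 5.81 on ethanol 2 and 5.80 on ethanol 4. Its median difference was -0.20 as deposited and -0.035 after quantile normalization. The median signal of the list was 5.33, as was that of the olfactory and vomeronasal receptor rows, so most of its rows were dim. The mean of those receptor rows was 5.51 on control 1, 5.45 on control 3, 5.22 on ethanol 2 and 5.40 on ethanol 4. The part of the hindbrain list in the glycine values was not tested. Over all 15 marker lists of brain regions and cell types the median difference ran from -0.50 (pituitary) to -0.013 (astrocytes). The 9 habenula markers, which hold Chrna3, Chrnb3 and Chrnb4, had a median difference of -0.036, and the 8 striatum markers of -0.088. The 9 cholinergic neuron markers hold Chat, Slc18a3 and Slc5a7. Their mean log2 signal was 6.12 and 6.02 on control 1 and control 3 and 5.90 and 5.93 on ethanol 2 and ethanol 4. As deposited 3 were past the limits and lower (Chat, Isl1 and Zic4) and 0 higher, beside 17.9% and 2.23% of all rows. After quantile normalization 0 were lower and 2 higher (Slc5a7 and Ngfr), beside 5.87% and 5.71%. The median signal of this list was 6.00, under 6.22, the 95th percentile of the olfactory and vomeronasal receptor rows.

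A ratio of 2 genes on the same array does not change when 1 factor scales the whole array, but it can change under quantile normalization, which moves bright and dim rows unequally, so the ratios are given in both forms. For 12 pairs of partners, chosen after the values of the genes had been seen, the log2 ratio was taken on each array. The level of such a ratio has no meaning across rows and is not interpreted, and it shows unequal change but not which partner changed. The groups were apart for 6 of the 12 pairs, and for the same 6 after quantile normalization. With each array centred on its median, 51.4% of single rows had the groups apart in either direction, so 6 of 12 is no more than single rows gave, and nothing is read from the count. The direction of a ratio follows from which gene stands first, and the pairs were written with known values. The 6 pairs are not independent, since Chat, Slc18a3 and Slc5a7 stand in 2 pairs each. With 2 arrays against 2, an exact two-sided permutation test cannot give a p under 0.333, so no test was made.

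The ratio of Chrna4 to Chrnb2 was 0.87 on control 1 and 0.84 on control 3, and 0.56 on ethanol 2 and 0.54 on ethanol 4. The arrays within a group differed by less than 0.03 and the groups by -0.30, or 0.812 of the control ratio. After quantile normalization the difference was -0.34. The ratio of Ache to Bche was 2.70 and 2.84 on control 1 and control 3 and 2.26 and 2.27 on ethanol 2 and ethanol 4, a difference of -0.50. Ethanol 2 lay above ethanol 4 for both genes, and the ratios of these arrays were nearly the same.

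The ratio of Chat to Slc18a3 was -0.037 and -0.040 on control 1 and control 3 and -0.35 and -0.31 on ethanol 2 and ethanol 4, a difference of -0.29. The ratio of Chat to Slc5a7 was -0.32 and -0.62 on control 1 and control 3 and -0.996 and -1.01 on ethanol 2 and ethanol 4, a difference of -0.53. Slc18a3 against Slc5a7 differed by -0.24 with 0.06 between the nearest arrays, and Chrna5 against Chrna3 by -0.37. Chat, Slc18a3 and Slc5a7 are made by the same neurons, and Chat and Slc18a3 were dim, so their ratios rest on signals near background. The same limit holds for the ratio of Chrna5, which was also dim and differed by 0.37 between the control arrays.

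For the other 6 pairs the groups overlapped. Glra1 against Glrb differed by -0.12 as deposited and 0.021 after quantile normalization, Slc6a5 against Slc6a9 by -0.089 and 0.0048, and Lynx1 against Ly6h by 0.040 and -0.15, so the sign of these 3 turned with the scaling. As deposited Chrm1 against Chrm2 differed by -0.060, Chrna3 against Chrnb4 by 0.12 and Chrna6 against Chrnb3 by -0.37. Under the treatment entry of the labels the ratio of Chrna4 to Chrnb2 differed by 0.024 and that of Ache to Bche by -0.074. Chat against Slc18a3 differed by -0.019 under that entry. Chat against Slc5a7 differed by 0.16, Slc18a3 against Slc5a7 by 0.18 and Chrna5 against Chrna3 by 0.23, all with the sign turned. The contrasts of the 6 pairs thus hold for the grouping by title alone.

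**Figure D3:**
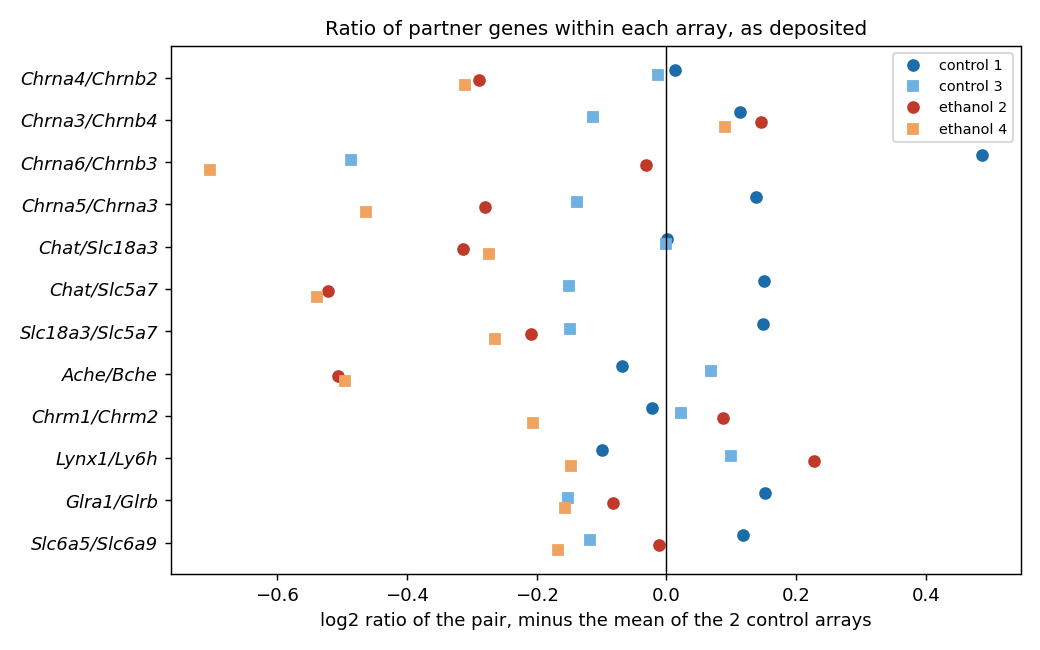
Log2 ratio of 12 pairs of partner genes on each of the 4 arrays, as deposited, each shown relative to the mean of the 2 control arrays of that pair. For Chrna4/Chrnb2, Chat/Slc18a3, Chat/Slc5a7, Slc18a3/Slc5a7, Ache/Bche and Chrna5/Chrna3 both ethanol arrays lie left of both control arrays, and for the other 6 pairs the groups overlap.

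A further 30 genes of the cholinergic pathway were measured by a row of their own. As deposited 2 of these 30 passed the limits as lower in ethanol and 0 as higher, beside 17.9% and 2.23% of all rows. The other 28 passed neither. Prima1, which anchors acetylcholinesterase in the membrane of brain neurons, had 7.35 and 7.21 on control 1 and control 3 and 6.98 and 6.95 on ethanol 2 and ethanol 4, a difference of -0.32 (SE 0.095, adjusted p = 0.19). Lypd6b, a relative of Lynx1, had a difference of -0.33 (SE 0.10, adjusted p = 0.19). After quantile normalization 0 of the 30 were lower and 1 was higher, beside 5.87% and 5.71% of all rows. The higher gene was Ly6g6e, a member of the Ly6 family, by 0.42 (adjusted p = 0.30). The difference of Prima1 was -0.13 in that form.

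Of 12 further genes of glycine metabolism and transport, 2 were lower as deposited and 0 were higher, counted by the same limits. In the deposited values of the whole array, 17.9% of rows fell beyond these limits and 2.23% rose beyond them. Amt, the aminomethyltransferase of the glycine cleavage system, had 7.74 and 7.54 on control 1 and control 3 and 7.11 and 7.06 on ethanol 2 and ethanol 4. The arrays of each group lay closer together than the groups, with a difference of -0.56 (SE 0.11, adjusted p = 0.17) as deposited. After quantile normalization the difference was -0.38 (adjusted p = 0.28). Amt was then the single gene of the 12 past the limits, beside 5.87% of all rows lower and 5.71% higher. Shmt2, the mitochondrial enzyme that interconverts serine and glycine, had a difference of -0.47 (SE 0.15, adjusted p = 0.20) as deposited and -0.31 after quantile normalization.

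The other fast transmitter receptors of the brain were counted the same way. The shares of all rows past the limits were 17.9% lower and 2.23% higher as deposited. After quantile normalization they were 5.87% and 5.71%. Of 16 subunits of GABA-A receptors 0 were past the limits and lower and 1 (Gabra6) was higher as deposited, with a median difference of -0.016. Of 15 subunits of ionotropic glutamate receptors 4 NMDA receptor subunits (Grin2b, Grin2c, Grin2d and Grin3b) were lower and 0 higher, with a median difference of -0.13, and after quantile normalization 2 were lower (Grin2b and Grin2d) and 2 higher (Grik4 and Grin3a). Beside these, the receptor genes for acetylcholine and glycine, with medians of -0.036 (neuronal nicotinic), -0.16 (muscarinic) and -0.12 (glycine), lay on both sides of the median of all rows, and no difference between the families was tested.

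The count of genes past the limits turned on the scaling and on the grouping. With each array centred on its median, 0 of the 35 were lower and 2 were higher, Slc5a7 and Chrna1, against 3.91% and 9.09% of all rows. With the treatment entry in place of the title, 0 were past the limits in either direction, against 0.686% and 0.917% of all rows, and the differences of Ache, Chat and Chrm1 changed sign, to 0.20, 0.031 and 0.040, while that of Chrna4 was -0.068 and that of Slc5a7 was -0.13. The labels all agree for control 3 and ethanol 2. On these 2 arrays the deposited differences were -0.30 for Ache, -0.40 for Chrna4, -0.35 for Chat, -0.26 for Chrm1 and 0.024 for Slc5a7. The median of all rows was 6.51 on control 3 and 6.33 on ethanol 2, so these differences include one in array level. Without ethanol 2, the array with few pituitary transcripts, the difference of Ache was -0.65 and that of Chat -0.32. The part of the pituitary difference between the pools in these values was not tested.

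**Figure D4:**
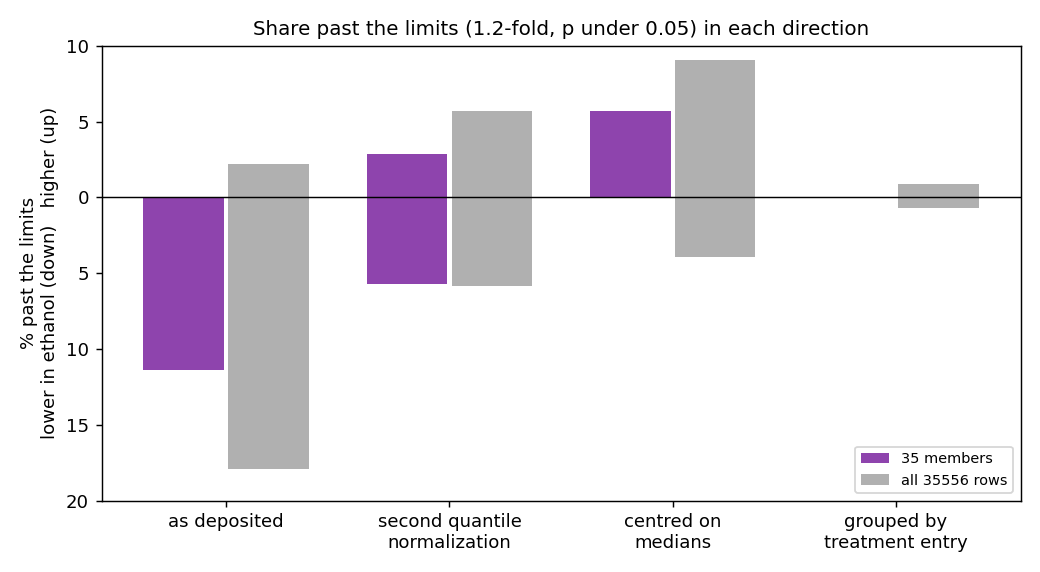
Share of the 35 genes (purple) and of all 35556 rows (grey) past the limits in each direction, in percent, lower in ethanol drawn downward from 0 and higher drawn upward, for the deposited values, a second quantile normalization, centring on array medians and grouping by the treatment entry. In all 4 forms the bar of the genes is no longer than that of all rows in either direction.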

How the data were processed

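Whole-brain RNA was hybridized to Affymetrix Mouse Gene 1.0 ST arrays, 4 in all. The authors summarized probes to genes by RMA with quantile normalization and a GC adjustment in Partek Genomics Suite (version 6.6 in the submitters' processing notes, another in the methods) and deposited log2 values, which were used as deposited. No cell was missing. No count of molecules exists for arrays, and their number limits the precision. The annotation names no genome build, so rows are given without coordinates.

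Arrays were grouped by title. Each row was fitted with limma 3.58.1 in R 4.3.3, 2 arrays against 2, with 2 residual and 2.57 prior degrees of freedom, two-sided, and the Benjamini-Hochberg adjustment was made across the whole array. The methods name a gene-level ANOVA, whose test per row was run as an alternative. The procedure was tested on simulated data. Values on every array are printed for genes past the limits or with groups apart by 0.1 or more in either form, and for 11 genes chosen for their role. Further values were added for the remaining genes. Of the pathway lists the genes past the limits are named. Cell type and region markers take, for each gene, the brightest row naming it alone. Alternatives were scaling, grouping, each array left out, a minimum mean log2 of 5, rows naming a single gene, an intensity trend, both possible pairings and a 1.5-fold limit. Members and lists were chosen with earlier results of these data known. Labels do not say that pools come from separate experiments, so p-values measure the spread between these pools.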

Additional observations from a re-analysis of the deposited data

How the results depend on the processing

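The 4 genes lower past the limits as deposited (17.9% of all rows) became 2 after the second quantile normalization (5.87%). With arrays centred on their medians they became 0 (3.91%). The 0 higher genes (2.23% of all rows) became 1 (5.71%) and 2 (9.09%) in the same order. Under the treatment entry 0 were lower, against 0.686% of all rows, and at 1.5-fold 0, against 3.63%. By the methods' test 1 was lower, Chrm1, against 8.11% of all rows. With 1 array left out, the median difference of the genes ran from -0.14 (without control 3) to -0.085 (without ethanol 2). The medians of all rows in these fits were -0.18 and -0.12. The count of lower genes was 4 with a mean log2 of at least 5 (32 genes kept), against 18.4% of the rows kept. It was 5 in a fit of the rows naming a single gene, against 20.1% of those rows. With an intensity trend it was 4, against 17.3% of all rows. The replicate block gave 5 with control 1 paired to ethanol 2 (Chrna6 added), against 17% of all rows. With control 1 paired to ethanol 4 it gave 4, against 16.7%. Labels do not pair the pools. The median difference, -0.12, became 0.046, 0.096 and 0.0018 under the second normalization, the centring and the treatment entry. Genes with the groups apart went from 16 lower and 1 higher to 9 and 11, to 3 and 16, and to 6 and 5 under the same settings. The shares of all rows were 52.7% and 7.25% as deposited, 24.9% and 24% after the second normalization and 14.8% and 36.6% after the centring. The share under the treatment entry was not taken.

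Among single genes past the limits, Ache, Chat and Chrm1 reversed under the treatment entry, to 0.20, 0.031 and 0.040. Further alternatives were chosen after seeing the data. Under the treatment entry the counts after quantile normalization (2 lower, 1 higher) became 0 and 1, against 1.36% and 1.41% of all rows. There Ache was 0.18, Slc5a7 -0.16 and Chrna6, past the limits, 0.60. With 1 array left out after quantile normalization, the median difference ran from 0.0020 (without ethanol 4) to 0.065 (without control 3). The cause of these changes was not tested. Of 15 genes whose mean signal lay under the 95th percentile of the olfactory and vomeronasal rows, 1 (Chat) was past the limits. The share of all rows lower past them was 17.9%. Differences of such dim genes are limited by background.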
